A study of Mus musculus with 2 samples.

Results

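The genes of the DNA replication machinery were described in RNA from the liver of the mouse embryo on day 12.5 of development. The set was a fixed list of 50 gene symbols covering origin licensing, the helicase, the polymerases, the sliding clamp, single-strand binding, flap removal and ligation, chromatin assembly and fork protection. All 50 were found among the 43346 mouse gene identifiers of the deposited gene tables. The rule used gene names and no measured value, though the members were chosen with earlier results of these data known.

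DNA is copied once per cell cycle in steps that are separated in time. The origin recognition complex binds DNA and, with Cdc6 and Cdt1, loads rings of the MCM2-7 helicase, a step called licensing that geminin blocks by binding Cdt1. In S phase Cdc45 and the GINS proteins turn the loaded ring into an active helicase. DNA polymerases alpha, epsilon and delta then copy the strands. Replication factor C loads the PCNA clamp, which holds polymerases delta and epsilon to DNA. The liver of this stage is the main site of blood formation in the embryo, and erythroid precursors there divide rapidly.

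The study measured total RNA in 2 libraries that form 1 group, liver of B6NCrl embryos of both sexes. Livers of 120 embryos were pooled for replicate 1 and livers of 88 embryos for replicate 2. Per the labels, each library was started with 10 ng of RNA, listed as larger than 200 in size, and spike-in controls. Where a gene is given a pair of values, they are those of replicates 1 and 2. The labels name no treatment, genotype contrast or cell sorting, so the data hold no comparison between conditions. Each pool was 1 library, so differences between the pools have no replicate check and no p-value was computed.

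Replicate 1 had 37.6 M expected counts with 2.94% on spike-ins, and replicate 2 had 34.7 M with 3.19%. Expected counts are reads assigned to a gene by estimate, and TPM divides them by length and scales them to a fixed total, so that TPM can be compared between genes. Markers of the labelled tissue were present, with all 7 erythroid markers and all 6 hepatoblast markers detected at median levels of 692 and 1081 TPM. Markers of other cell types of the organ were also present, with granulocyte, megakaryocyte, macrophage, endothelial and mesenchymal medians of 112, 147, 34.5, 12.7 and 87.9 TPM. The 3 heart markers were detected at a median of 2.12 TPM. Myl7 was the highest of them at 19.5 and 18.9 TPM, above the median of detected genes at 12.7 TPM. Tnnt2 had 1.33 and 2.9 TPM, and Nppa had 1.12 and 1.7 TPM. Of 3 gut markers 1 was detected, Barx1 at a mean of 6.51 TPM, and 0 of 3 neural markers were. In RNA of a whole organ, fewer cells of a type and less RNA per cell cannot be told apart, and how each cell type contributes to the replication genes was not tested.

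Promoter sequence was examined first, since E2F transcription factors are known to drive many replication genes at the start of S phase and their binding motif can be read from the bases. RefSeq promoter windows, 250 bases before to 50 bases after an annotated start on GRCm38.p6, were held for 40 of the 50 genes. The genes Gins1, Gins2, Gins4, Tipin, Rfc2, Dscc1, Gmnn, Prim2, Pole and Mcm4 had no window. Each window was searched on both strands for the 8-letter E2F motifs TTTCCCGC, TTTCGCGC, TTTGCCGC and TTTGGCGC, and for their 7-letter cores, the same letters without the first T, so that every 8-letter match is also a 7-letter match. The 180 bases from 150 before to 30 after the start are shown for the pair of genes with the highest levels, Pcna and Mcm6, for the gene with the lowest level, Gins3, and for a loading factor and a polymerase subunit, Cdc6 and Pola1. Capitals mark the 7-letter E2F matches that lie wholly within the printed bases, on either strand, and overlapping matches run together. The Pcna bases are chr2:132253151-132253330 on the minus strand, the Mcm6 bases chr1:128359676-128359855 minus, the Gins3 bases chr8:95633409-95633588 plus, the Cdc6 bases chr11:98908001-98908180 plus and the Pola1 bases chrX:93632126-93632305 minus.
Pcna: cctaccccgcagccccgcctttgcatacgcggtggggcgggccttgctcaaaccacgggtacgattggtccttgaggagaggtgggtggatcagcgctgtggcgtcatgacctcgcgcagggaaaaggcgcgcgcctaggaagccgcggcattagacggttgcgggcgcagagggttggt
Mcm6: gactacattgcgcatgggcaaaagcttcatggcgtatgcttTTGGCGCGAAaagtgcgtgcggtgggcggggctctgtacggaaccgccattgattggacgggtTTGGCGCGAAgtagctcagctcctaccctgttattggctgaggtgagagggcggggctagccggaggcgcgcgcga
Gins3: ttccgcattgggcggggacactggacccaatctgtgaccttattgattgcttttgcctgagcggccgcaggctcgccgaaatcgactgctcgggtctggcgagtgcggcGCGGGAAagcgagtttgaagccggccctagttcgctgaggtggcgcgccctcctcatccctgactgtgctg
Cdc6: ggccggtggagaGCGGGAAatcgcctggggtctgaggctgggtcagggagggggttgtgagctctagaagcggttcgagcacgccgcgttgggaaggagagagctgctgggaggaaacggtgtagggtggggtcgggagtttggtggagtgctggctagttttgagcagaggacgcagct
Pola1: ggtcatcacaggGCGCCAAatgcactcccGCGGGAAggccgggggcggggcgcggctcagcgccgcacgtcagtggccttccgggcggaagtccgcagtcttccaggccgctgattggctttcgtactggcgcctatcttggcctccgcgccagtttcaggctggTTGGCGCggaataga

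The Mcm6 stretch held overlapping matches on both strands at positions -109 and -106 from the start and again at -46 and -43. Gins3 held a match at -41 and Cdc6 a match at -138. Pola1 held matches at -138, -121 and 16 in the printed bases. The Pcna window held no E2F match. Its RefSeq start lay 134 bases downstream of the 5′ end of the Pcna transcript that led in these libraries. For Gins3 the RefSeq start lay 106 bases downstream of the 5′ end, so the match at -41 fell after that end. For Mcm6 the RefSeq start lay 41 bases upstream of the 5′ end, and for Cdc6 and Pola1 the distance was 0.

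At least 1 match to a 7-letter core lay in the windows of 26 of 40 genes (65%), against 19.6% of 9477 other detected genes. Counted by window, since some genes had several, it was 58.3% of 48 windows of the set against 9.57% of all 32851 windows. The 8-letter form lay in 16 of 40 (40%), against 4.73% of the other detected genes, or 33.3% of the windows of the set against 2.26% of all windows. By role, matches were found in 4 of 5 MCM2-7 genes, both loading factor genes with a window, 3 of 6 origin recognition genes, 3 of 5 clamp and clamp loader genes and 1 of 3 helicase activation genes. The other motifs searched stood nearer their shares among other detected genes. Counted by gene, the CCAAT box (CCAAT) was held by 23 of 40 (57.5% against 43.3%), the GC box (GGGCGG) by 30 (75% against 69.2%) and the cell cycle homology element CHR (TTTGAA or TTCGAA) by 8 (20% against 16.3%). A match is a run of letters and does not show that a factor binds there.

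**Figure D1:**
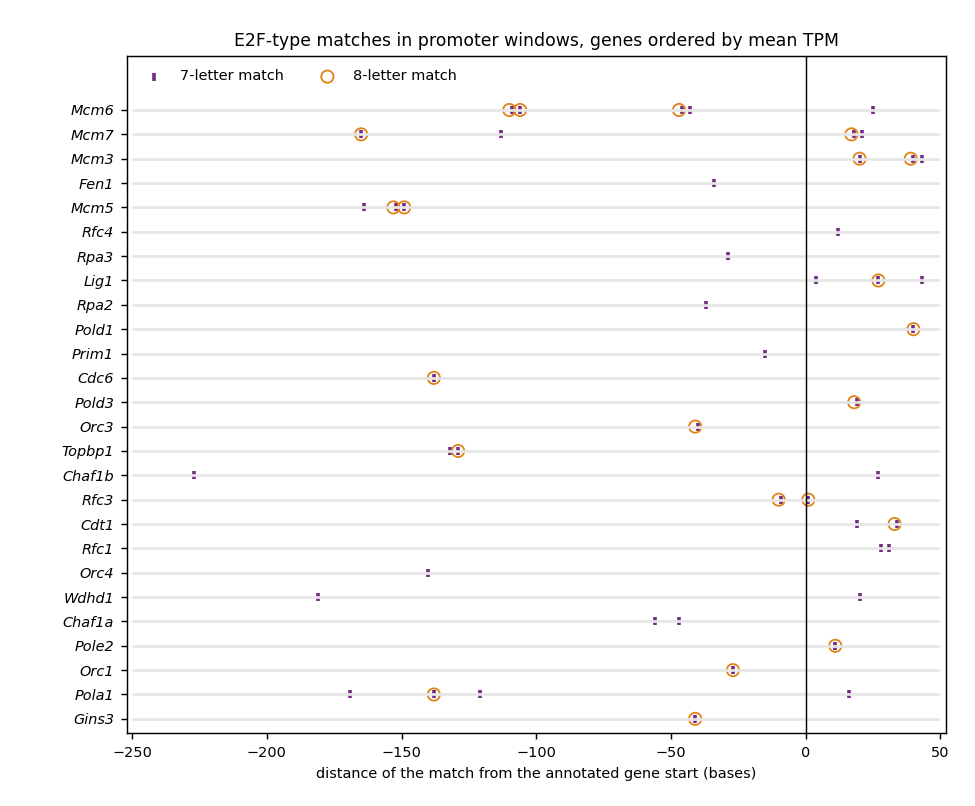
Positions of E2F-type matches in the promoter windows of the 26 replication genes with at least 1 match, as distance in bases from the annotated RefSeq start, with genes from high to low mean TPM. Purple bars are 7-letter matches and orange rings 8-letter matches, and the match farthest from a start is that of Chaf1b at -227.

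Genes with and without an E2F core overlapped in level. The 26 genes with a match had a median of 70.1 TPM and ran from 10.8 to 299 TPM, and the 14 without a match had a median of 66.8 TPM and ran from 35.3 to 310 TPM. Pcna, at the top of the order, was without a match, and Gins3, at the bottom, had one. For both, the window was set by a RefSeq start downstream of the 5′ end of the leading transcript.

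All 50 genes were detected at a TPM of at least 1 in both libraries, where 29.6% of mouse gene identifiers were. The 50 are all protein-coding, while the identifiers include other gene types. Of the 12841 detected genes 11696 were protein-coding, and the share detected among coding genes alone was not counted. Their median level was 67.5 TPM, against 12.7 TPM over the 12841 detected genes. The mean over both libraries was at least 100 TPM for 16 of the 50, against 9.77% of detected genes, and 17 were among the 1284 most abundant detected genes, which began at 97.6 TPM. Only Gins3 lay below the median of detected genes. Together the 50 genes summed to 4689 TPM in replicate 1 against 4659 in replicate 2, or 0.495% and 0.494% of the TPM of all mouse genes. Levels spread from 10.8 to 310 TPM, yet 23 of the 50 lay between 40 and 80 TPM. In the order by mean level, the library values of 20 of the 49 neighbouring pairs overlapped and those of 29 did not.

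**Figure D2:**
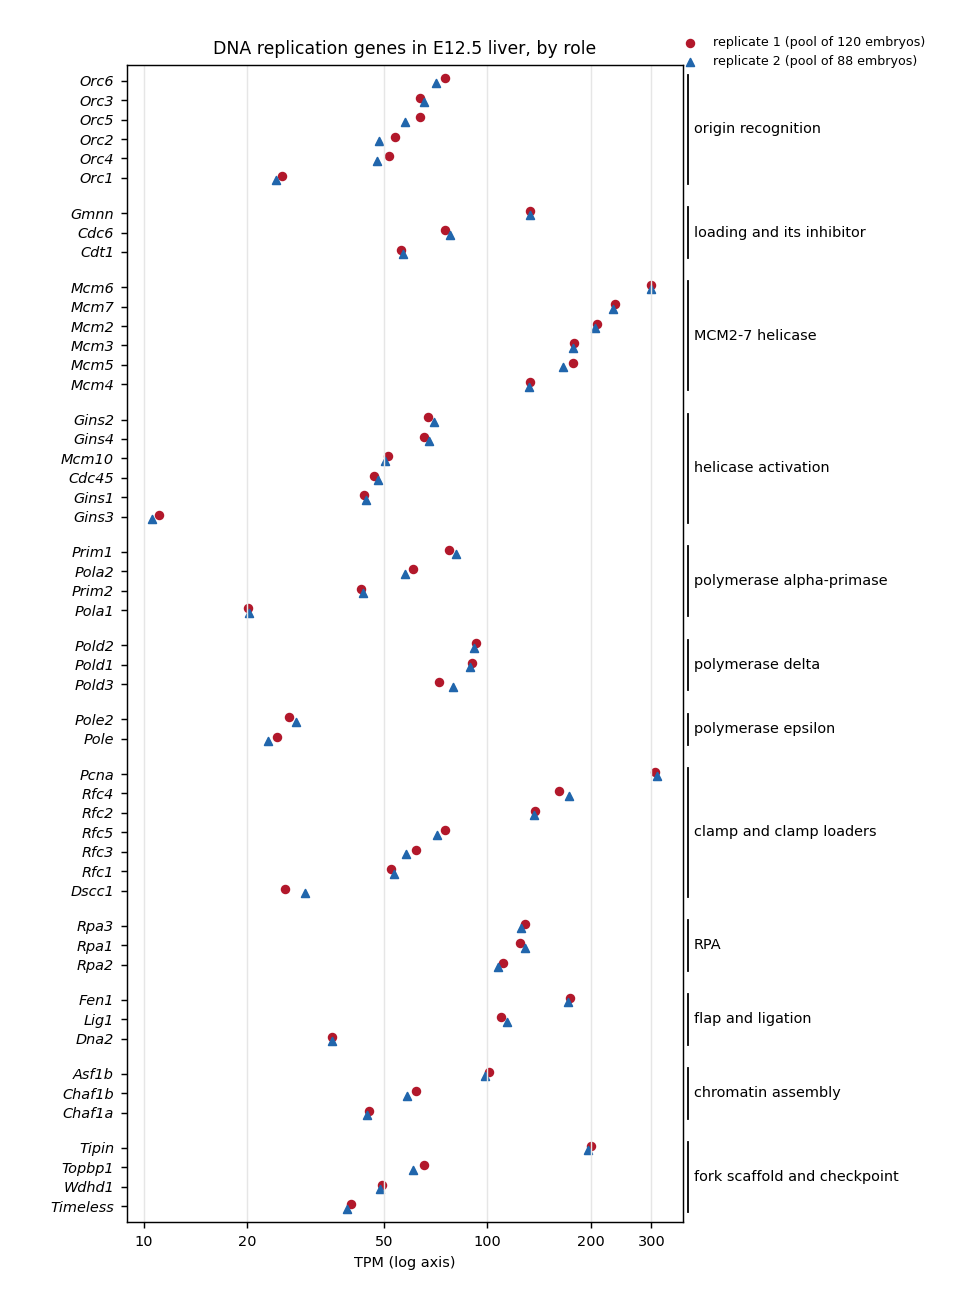
TPM of the 50 replication genes on a log axis, grouped by role, with red circles for replicate 1 (120 embryos) and blue triangles for replicate 2 (88 embryos). The MCM2-7 genes lie between 132 and 300 TPM, and Pcna and Gins3 mark the ends of the range.

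Licensing genes were first compared. The 6 genes of the origin recognition complex, the platform on which the helicase is loaded, had a median of 55.8 TPM. Orc6, a small subunit that helps bind DNA, was the highest with 75.4 TPM in replicate 1 against 70.9 in replicate 2. Orc1, the ATPase subunit whose protein is known to be removed after licensing in mammalian cells, was the lowest by gene TPM at 25.2 and 24.2 TPM. The ratio of Orc6 to Orc1 was 2.99 in replicate 1 and 2.93 in replicate 2. The remaining subunits Orc2, Orc3, Orc4 and Orc5 had mean levels from 49.8 ± 2.85 to 64.5 ± 1.23 TPM (SD, n = 2). Orc4 was the lowest of these, and on protein-coding models alone it fell below Orc1, at 15.5 TPM against 23.0 TPM for Orc1.

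The loading factors differed from their inhibitor. Gmnn, which encodes geminin, had 133.3 TPM in replicate 1 against 133.4 in replicate 2. Cdt1, the protein that geminin binds, had 56.2 and 56.7 TPM. Gmnn thus stood 2.37-fold above Cdt1 in replicate 1 and 2.35-fold above it in replicate 2, and the libraries did not overlap. Cdc6, the ATPase that works with Cdt1, had 75.0 and 77.7 TPM, or 1.34 and 1.37 times the level of Cdt1.

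The MCM2-7 genes, which encode the ring of the replicative helicase, had the highest median of the 12 roles at 192 TPM. They made up 26.2% of the summed TPM of the 50 genes in replicate 1 and 26.0% in replicate 2. Mcm6 led with 298.7 and 299.7 TPM, from 26682 and 24628 reads, followed by Mcm7 with 234.8 and 231.7 TPM and Mcm2 with 208.1 and 205.5 TPM. Mcm3 had 178.5 and 177.5 TPM and Mcm5 had 177.3 and 166.3 TPM, so the order of this pair was the same in both libraries. Mcm4 was the lowest with 133.0 and 132.1 TPM. The protein complex holds 1 copy of each subunit, and the RNA levels of its highest and lowest gene differed 2.25-fold in replicate 1 and 2.27-fold in replicate 2.

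Helicase activation genes stood lower, with a median of 49.2 TPM. The 4 GINS genes encode a complex with 1 copy of each subunit, and their RNA levels were uneven. Gins4 had 65.5 TPM in replicate 1 against 67.4 in replicate 2, and Gins1 had 43.7 and 44.3 TPM. Gins3 (chromosome 8, 95633453 to 95645060, plus strand) had 11.1 and 10.6 TPM from 805 and 712 reads. It was the lowest of the 50 genes, at rank 6978 of the 12841 detected, and Gins4 exceeded it 5.92-fold and 6.38-fold. Both Gins3 and Gins4 have a single annotated transcript model, so this ratio did not depend on how reads were split among models. Gins2 is listed at 67.3 and 69.9 TPM, a level of which 66.0% and 66.5% lay on a 511-nt retained intron model. Cdc45 had 46.9 and 48.2 TPM, and Mcm10, an initiation factor that is not a ring subunit, had 51.3 and 50.4 TPM. Mcm7 exceeded Mcm10 by 4.57 and 4.59 times.

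By gene TPM the polymerase genes of the set ranked delta, alpha, epsilon, with medians of 89.5, 51.2 and 25.4 TPM over 3, 4 and 2 genes. The further subunit genes Pold4, Pole3 and Pole4 are outside the set and not in these medians. Their mean levels were 10.6, 71.5 and 69.9 TPM. Polymerase alpha-primase, which makes the RNA-DNA primers, was uneven. Its primase subunit gene Prim1 had 77.4 and 80.9 TPM and its catalytic polymerase gene Pola1 had 20.1 and 20.2 TPM, a ratio of 3.85 in replicate 1 and 4.01 in replicate 2. The accessory subunit gene Pola2 had 60.9 and 57.5 TPM, and the other primase gene Prim2 had 42.8 and 43.4 TPM. The epsilon genes were both low, with the catalytic subunit gene Pole at 24.4 and 23.0 TPM and Pole2 at 26.5 and 27.6 TPM. For polymerase delta, which copies the lagging strand, Pold1 had 90.2 and 88.7 TPM, Pold2 had 92.4 and 91.5 TPM, and Pold3 had 72.1 and 79.3 TPM. The catalytic subunit gene was therefore the lowest of its complex for alpha, and Pole lay below Pole2 in both libraries.

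The clamp and its loaders spanned the widest range of any role. Pcna (chromosome 2, 132249162 to 132253314, minus strand) was the highest of the 50 genes, with 307.5 and 312.2 TPM, rank 368 of the detected genes. Replication factor C opens the clamp and closes it on DNA. Its large subunit gene Rfc1 had 52.4 and 53.4 TPM, so that Pcna exceeded it 5.87-fold and 5.84-fold by gene TPM. With all reads of each gene divided by the length of its most-read coding model, Pcna exceeded Rfc1 12.8-fold and 12.7-fold. For Rfc1, only 31.4% of reads in replicate 1 and 26.7% in replicate 2 lay on models typed as coding. The small subunit genes were unequal, with Rfc4 at 161.8 and 173.2 TPM, Rfc2 at 137.3 and 136.7 TPM, Rfc5 at 75.5 and 71.5 TPM and Rfc3 at 62.1 and 57.9 TPM. Dscc1, a subunit of the alternative loader that also serves sister chromatid cohesion, was the lowest by gene TPM at 25.8 and 29.5 TPM, and Pcna exceeded it 11.9-fold and 10.6-fold. By the most-read model Rfc1 lay below Dscc1, at 19.7 RPKM against 24.4 RPKM for Dscc1.

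The RPA genes, which encode the single-strand binding complex, lay close together by gene TPM. Rpa3 had 128.4 TPM in replicate 1 against 125.0 in replicate 2, Rpa1 had 124.3 and 128.8 TPM, and Rpa2 had 111.0 and 107.1 TPM. The order of Rpa1 and Rpa3 was turned round between the libraries, with ratios of Rpa1 to Rpa3 of 0.968 and 1.03. Rpa2 lay below both in both libraries, and Rpa3 exceeded it 1.16-fold in replicate 1 and 1.17-fold in replicate 2. On protein-coding models alone Rpa1 was the lowest of the complex, at 76.2 TPM, since part of its TPM lay on a retained intron model. The genes of lagging strand processing spread more widely. The flap nuclease gene Fen1 had 173.8 and 171.1 TPM, the ligase gene Lig1 had 109.9 and 114.0 TPM, and the nuclease-helicase gene Dna2 had 35.2 and 35.3 TPM. Fen1 exceeded Dna2 by 4.94 and 4.84 times.

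Genes of chromatin assembly, which place histones on the new DNA, had a median of 60.2 TPM. The histone chaperone gene Asf1b had 101.0 and 98.4 TPM, and the CAF-1 subunit genes Chaf1b and Chaf1a had 62.1 and 58.2 TPM and 45.3 and 44.6 TPM. Asf1b exceeded Chaf1a 2.23-fold in replicate 1 and 2.21-fold in replicate 2.

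At the fork, Tipin and Timeless encode partners of a complex that holds helicase and polymerase together. Tipin had 200.5 and 196.9 TPM, rank 588 of the detected genes, while Timeless had 40.1 and 38.9 TPM. The ratio of Tipin to Timeless was 5.00 in replicate 1 and 5.06 in replicate 2. Topbp1, a scaffold that activates the checkpoint kinase ATR, had 65.2 and 60.7 TPM, and Wdhd1, which links the helicase to polymerase alpha, had 49.4 and 48.5 TPM.

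Gene TPM depends on the transcript models to which reads were assigned, because a short model turns few reads into a high TPM. Counted over protein-coding models alone, the median of the 50 genes was 56.7 TPM. By RPKM, with all reads of a gene over the length of its most-read protein-coding model, it was 49.2. RPKM is scaled to the total of reads, as the deposited FPKM is, and is not on the TPM scale. The median FPKM of the 50 genes was 56.6. Mcm2, with a single model, had 208.1 TPM but 174.4 FPKM in replicate 1. The MCM2-7 role kept the highest median on coding models and by RPKM, at 189 TPM and 154 RPKM. Pcna and Mcm6 exchanged places, with Mcm6 at 298 and Pcna at 290 TPM on coding models. Gins3 was the 49th of 50 by coding models, after which came only Rfc1, for which 86.1% of the TPM in replicate 1 lay on models that have no type in the annotation used.

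Several ratios moved under these measures. Gins2 over Gins3 was 6.08 in replicate 1 and 6.62 in replicate 2 by gene TPM, but 1.52 and 1.54 on coding models, whereas Gins4 over Gins3 stayed at 5.92 and 6.38. Tipin over Timeless was 6.31 and 6.28 on coding models, and 9.22 and 8.91 by the most-read models. Pole2 over Pole was 2.30 and 2.59 by the most-read models, against 1.09 and 1.20 by gene TPM. The median of polymerase delta was 47.8 TPM on coding models and that of alpha-primase 47.9 TPM, so that delta did not lie above alpha-primase on this measure. Mcm3 had 119 TPM on coding models and was then the lowest MCM2-7 gene, below Mcm4 at 132.6 TPM, and by the most-read models the pair had 110 and 111 RPKM. Rfc4, at 128 TPM on coding models, then lay below Rfc2 at 137 TPM. Orc6 over Orc4 was 1.45 and 1.48 by gene TPM, but 4.45 and 5.02 on coding models and 4.26 and 3.93 by the most-read models, so that Orc4 and not Orc1 was the lowest origin recognition gene on both of these measures. Mcm7 over Mcm10 was 6.90 and 6.74 on coding models. Mcm6 over Mcm4, at 2.24 and 2.25 on coding models, and Gmnn over Cdt1, at 2.36 and 2.35, were nearly as by gene TPM.

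**Figure D3:**
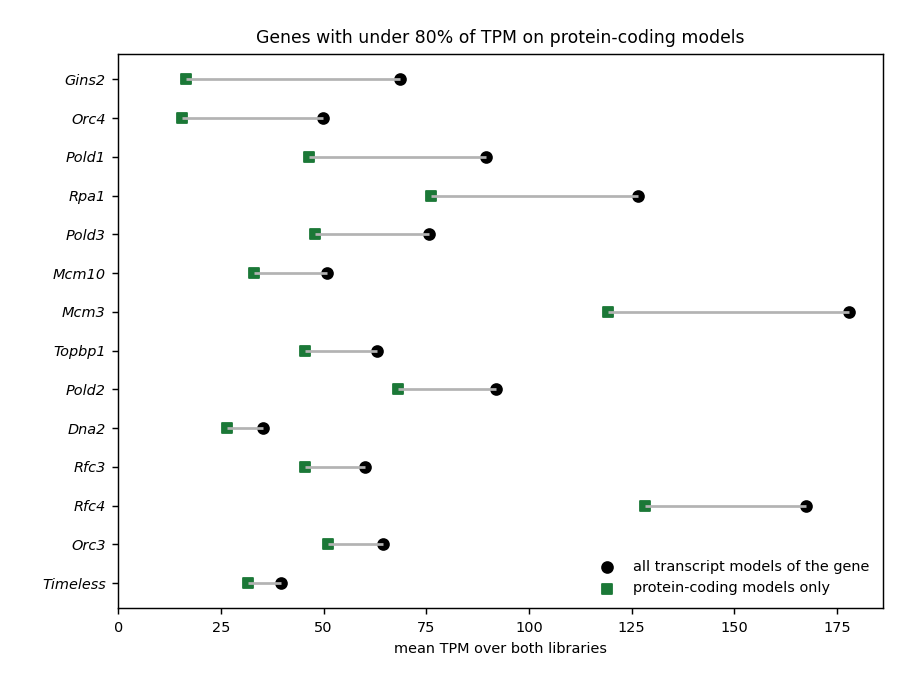
Mean TPM over both libraries for replication genes with under 80% of their TPM on protein-coding models, with black circles for all models of a gene and green squares for its protein-coding models alone. Gins2 lies at 68.6 and 16.5 TPM on the 2 measures and Orc4 at 49.8 and 15.5 TPM. Rfc1, whose models mostly have no type in the annotation used, is not drawn.

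Transcript models were then described for each gene. Of the 50 genes, 40 had more than 1 model and 10 had a single model. The model with the largest share of gene TPM was the same in both libraries for all 40 with several models, where it differed for 4.38% of genes with several models and at least 10 TPM. By expected counts it differed between the libraries for 2 of the 40, Fen1 and Timeless, against 3.34% of such genes. A single model held over 90% of the TPM in both libraries for 20 of the 50 genes, against 43.3% of coding genes with at least 10 TPM. Among genes with several models it was 10 of 40, against 25.4%. The median share of gene TPM on protein-coding models was 94.2% in replicate 1 and 93.1% in replicate 2, below the 98.4% and 98.5% of all detected coding genes. By expected counts the median of the 50 was 96.9% and 96.5%.

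The leading model was not annotated as protein-coding for 3 of 50 genes, Orc4, Gins2 and Rfc1, against 6.38% of coding genes with at least 10 TPM. For Gins2, a 511-nt retained intron model held 66.0% of the TPM in replicate 1 and 66.5% in replicate 2, from 576 of 2781 reads and 558 of 2667 reads. Its 3900-nt protein-coding model held 25.0% and 23.3% of the TPM but 2009 and 1804 reads. For Orc4, a 1477-nt processed transcript held 29.7% and 32.2%, and the 4066-nt protein-coding model had 15.4% and 18.2% of TPM from 996 and 1004 reads. For Rfc1, a 485-nt model held 43.8% and 41.5% from 279 and 250 reads. By expected counts, the leading model of Gins2 and Orc4 was the protein-coding one in both libraries.

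No model held 50% of the TPM in either library for 6 of 50 genes, Orc3, Orc4, Pole, Rfc1, Fen1 and Lig1, against 14.7% of coding genes with at least 10 TPM and 19.4% of those with several models. In Fen1, which was divided among protein-coding models only, a 2100-nt and a 2341-nt model had 40.7% and 34.3% in replicate 1 and 39.5% and 35.8% in replicate 2. In Lig1 a 944-nt and a 3091-nt coding model had 28.9% and 26.7% in replicate 1 and 30.6% and 27.5% in replicate 2, though the longer one had 2763 and 2733 reads against 846 and 860. In Orc3 a 2300-nt model led with 44.5% and 45.7%.

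The libraries placed reads of Pole on different minor models. A 1766-nt retained intron model held 19.8% of Pole TPM in replicate 1 and 2.86% in replicate 2, from 253 and 31.9 reads. A 1523-nt coding model held 8.16% and 24.1%, from 89.1 and 231 reads. The full 7163-nt model held 34.2% and 34.1%. The minor models of Pole therefore differed between pools while the leading share did not, and how far the assignment of shared reads plays into this was not tested.

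Retained intron models held over 20% of gene TPM in both libraries for 10 of 50 genes, against 9.11% of detected coding genes. These were Mcm3, Mcm10, Gins2, Pold1, Pold2, Rfc3, Rfc4, Rpa1, Dna2 and Topbp1. The share was 38.3% in replicate 1 and 40.6% in replicate 2 for Rpa1, 35.4% and 38.4% for Pold1 and 32.9% and 33.2% for Mcm3. By expected counts 1 of 50 passed that level, Gins2 with 25.7% and 30.4%, against 4.93% of detected coding genes. Over the summed TPM of the 50 genes, retained introns took 8.49% and 8.88%, below the 11.2% and 11.5% of all detected coding genes. Total RNA includes unspliced precursors, and these shares do not separate them from stable transcripts.

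The pools were then compared. None of the 50 genes was 25% or more higher or 20% or more lower in replicate 1 than in replicate 2. Of 13017 genes with a mean count of at least 50, 4.02% were that much higher and 5.32% that much lower. The share of such genes falls with depth, to 1.33% higher and 2.23% lower among 10558 genes with a mean count of at least 200, which all 50 genes of the set exceed. Ratios of TPM, replicate 1 over replicate 2, ran from 0.875 to 1.11 with a median of 1.01, against 1.01 over the genes with a mean count of at least 200. In all, 47 of 50 (94%) lay within 1.1-fold, against 75.3% of the genes with a mean count of at least 200 and 67.0% of those with at least 50, and the fewest reads of a gene of the set in a library were 712. By the exact 95% counting interval, which covers counting error only, 10 genes of the set lay above 1 and 6 below 1. Of the 13017 genes with a mean count of at least 50, 16.3% lay above 1 and 14.6% below 1. Intervals narrow with depth, and these shares are not given for a mean count of at least 200. The interval of the other 34 held 1.

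**Figure D4:**
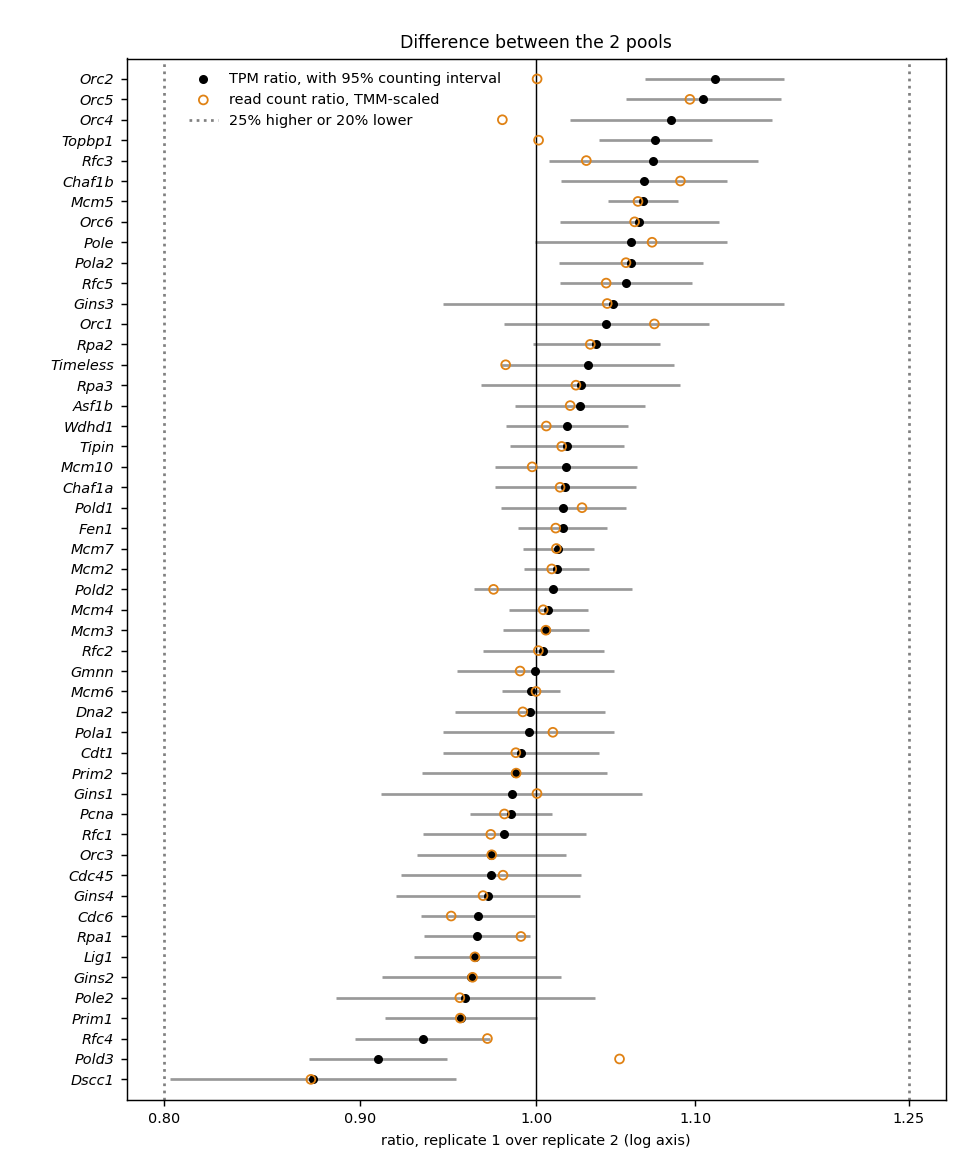
Ratio of replicate 1 over replicate 2 for each of the 50 genes on a log axis, as TPM with its exact 95% counting interval (black points, grey bars) and as read counts scaled with TMM size factors (orange rings). All lie between the dotted lines at 25% higher and 20% lower, and Orc2, Orc4, Topbp1 and Pold3 show the widest gaps between the measures.

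The 3 highest ratios were those of origin recognition genes, though Orc3 of the same complex had 0.973. Orc2 had 53.8 TPM in replicate 1 against 48.4 in replicate 2, a ratio of 1.11 (1.07 to 1.16). Orc5 had 63.6 and 57.5 TPM, a ratio of 1.11 (1.06 to 1.16), and Orc4 had 51.8 and 47.8 TPM, a ratio of 1.08 (1.02 to 1.15). Scaled read counts, which take no account of transcript length, gave another picture for Orc2, with a ratio of 1.00, and for Orc4, with 0.980, while Orc5 stayed at 1.10 (1.05 to 1.15). The average transcript length that was assigned to Orc2 was 2846 nt in replicate 1 and 3146 nt in replicate 2. A 370-nt model of Orc2 held 21.7% and 11.9% of its TPM from 99.6 and 45.5 reads.

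The lowest ratio belonged to Dscc1, at 0.875 (0.803 to 0.953) from 1046 and 1105 reads, and it was 0.874 by scaled counts. Rfc4 had a ratio of 0.934 (0.897 to 0.972), or 0.971 by scaled counts. Pold3 had 72.1 TPM in replicate 1 against 79.3 in replicate 2, a ratio of 0.909 (0.872 to 0.948), but by scaled counts the ratio was 1.05 (1.01 to 1.10) and lay on the other side of 1. Its assigned length was 2233 and 1940 nt, and a 186-nt model held 15.6% and 24.3% of Pold3 TPM from 30.9 and 48.9 reads. In all, 7 genes of the set changed direction between TPM and scaled counts, and only for Orc4 and Pold3 did the TPM interval leave out 1. The share of all genes that changed direction in this way was not counted, so whether 7 is many cannot be told. Granulocyte markers summed to 466 TPM in replicate 1 against 519 in replicate 2, and megakaryocyte markers to 894 and 786 TPM; their part in these small ratios was not tested.

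Other genes of the pathway were read from a list of 41 that holds initiation kinases and cyclins, further complex subunits, chromatin factors and nucleotide supply enzymes. All 41 were detected, with a median of 68.1 TPM, and 13 reached 100 TPM. None was 25% higher or 20% lower in replicate 1 than in replicate 2, and 37 lay within 1.1-fold. The highest was Rrm2, the small subunit of ribonucleotide reductase, with 480.5 and 460.4 TPM. Rbbp4, the histone-binding subunit that CAF-1 shares with other complexes, had 252.4 and 264.0 TPM, well above Chaf1a and Chaf1b, and cyclin A2 (Ccna2) had 249.9 and 254.7 TPM. The lowest were Mcm9, a relative of the ring subunits that acts in repair, at 3.18 and 3.03 TPM, the initiation factor gene Ticrr at 5.56 and 6.29 TPM and the small delta subunit gene Pold4 at 10.5 and 10.7 TPM.

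Pold4 thus lay below every other delta subunit gene in both libraries. The histone-fold subunit genes of polymerase epsilon, Pole3 at 73.2 and 69.9 TPM and Pole4 at 69.8 and 69.9 TPM, lay above Pole and Pole2 in both libraries. Of the alternative clamp loader to which Dscc1 belongs, Chtf8 had 52.3 and 49.4 TPM and Chtf18 had 34.2 and 29.1 TPM. Asf1a, the paralog of Asf1b, had 56.5 and 55.1 TPM, so Asf1b was the higher of the pair in both libraries.

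Mcm7 carries 3 microRNA genes within its span on chromosome 5 (138164583 to 138172422, minus strand), those of miR-106b, miR-93 and miR-25. Their mature RefSeq sequences are shown because the first and second share a seed, bases 2 to 8, given in capitals.
mmu-miR-106b-5p: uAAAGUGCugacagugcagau
mmu-miR-93-5p: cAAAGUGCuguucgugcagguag
mmu-miR-25-3p: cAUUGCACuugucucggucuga

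The microRNA genes themselves are listed at 0 in both libraries. Their annotated lengths of 82, 88 and 84 nt lie below the 99 nt under which the deposited tables give an effective length of 0, and the labels give a size range above 200 for the RNA, so these libraries do not measure them. The level of the host, 234.8 and 231.7 TPM for Mcm7, is no measure of the mature microRNAs.

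Neighbouring genes could share reads with some members where exons overlap, since the strandedness of the libraries is not given. Nearness of starts alone does not show that exons are shared. A protein-coding gene on the other strand began within 1000 bases of the start of 15 of the 50 genes (30%), against 16.7% of 11696 detected coding genes. Levels within such pairs were often unequal. Mcm4 had 133.0 and 132.1 TPM beside Prkdc, a repair kinase gene, at 6.45 and 6.28 TPM, and Fen1 had 173.8 and 171.1 TPM beside Tmem258 at 305.5 and 307.2 TPM. Cdc45, at 46.9 and 48.2 TPM, stood close to its neighbour Ufd1 at 46.3 and 44.2 TPM.

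By the exons of GENCODE M21, overlap with a gene on the other strand was 4648 bases for Chaf1a with Ubxn6 and 2758 bases for Gins2 with Gse1. It was 1909 bases for Fen1 with Gm10143 and 1150 bases for Orc2 with Nif3l1. Reads were assigned on GENCODE M4, where Chaf1a had 1 model of 3308 nt, so the overlap that bears on the reads can differ. The deposited posterior standard deviation of the count, a measure of uncertain read assignment, was largest for Fen1 at 46.3 of 11503 reads in replicate 1, followed by Chaf1a at 16.2 of 4579 and Gins2 at 15.3 of 2781. Processed copies with at least 90% identity over 300 bases existed for 7 genes, Cdc6, Gmnn, Mcm4, Mcm7, Pcna, Rfc5 and Rpa3. The share over all genes was not counted. The copy of highest identity was that of Pcna, Pcna-ps2, with 99.2% over 781 bases. It had 70.6 reads in replicate 1 and 68.6 in replicate 2, against 13286 and 12498 for Pcna. The longest match was the Mcm7 copy Gm5487, with 97.7% identity over 2157 bases. Gm5487 and the Gmnn copy Gm6510 have no entry among the deposited genes, so reads shared with them cannot be seen.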

How the data were processed

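Total RNA of embryonic liver was measured in 2 libraries, given per the labels as biological replicates of 1 group. The authors deposited a gene table and a transcript table per library on assembly mm10 with GENCODE M4 annotation, per the texts deposited beside them. The sources used here do not give the aligner, quantifier or strandedness. Expected counts are the authors' estimated, unnormalized reads, and deposited TPM and FPKM values are scaled by effective length, which equals length minus 99 nt, and by depth. The deposited isoform percent is the authors' share of gene TPM, and shares were recomputed from transcript TPM. The deposited posterior standard deviations of counts were read as given.

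Genes were matched by unversioned identifier, and near copies were found by BLASTN among annotated transcripts. Transcript types and coordinates came from GENCODE M21 on the same assembly, and promoters and microRNAs from RefSeq on GRCm38.p6. Detected means TPM of at least 1 in both libraries. TPM ratios took replicate 1 over replicate 2, and their log2 used a pseudocount of 0.1. Exact 95% Clopper-Pearson intervals came from expected counts rounded to whole numbers. Amplified reads carry no molecular identifiers and are not independent, so these intervals cover counting error only. Size factors came from edgeR 4.0.16 (TMM) and DESeq2 1.42.0 in R 4.3.3, used for scaling and not for a test. Other steps used Python 3.11.15, pandas 2.3.3, SciPy 1.17.1 and matplotlib 3.10.9, and the ratio and interval code was tested on simulated data. All 50 members are named by role, with values for the highest and lowest of each role, the 3 highest and 3 lowest ratios between the pools, and members of named pairs, and the remaining members were added for completeness. The members, lists and rules were chosen with earlier results of these data known.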

Additional observations from a re-analysis of the deposited data

How the results depend on the processing

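Levels depend on the scaling. The median of the 50 genes, 67.5 TPM, was 71.4 TPM over mouse genes only and 98.2 TPM with globins left out. It was 56.7 TPM on protein-coding models, and 66.4 and 68.7 TPM in single libraries. As FPKM it was 56.6. By RPKM, a scale like that of FPKM, it was 49.2 with all reads over the length of the most-read coding model. The number of members in the upper 10% of detected genes was 9 where detection asked for 5 TPM and 24 where it asked for 0.1 TPM, against 17 at 1 TPM. Orc6 over Orc1, 2.96, was 3.18 on coding models and 3.11 on most-read models. Gins2 over Gins3, 6.35, was 1.53 and 2.19, and Tipin over Timeless, 5.03, was 6.29 and 9.07. Gins3 and Tipin have 1 model each and kept their TPM on coding models, so there the moves lay in Gins2 and Timeless. How reads came to be assigned among the models was not tested. Mcm6 over Mcm4 and Gmnn over Cdt1 moved by less than their spread.

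Genes at least 25% higher (523) or 20% lower (693) in replicate 1 numbered 1449 and 1686 at a mean count of at least 10, 140 and 235 at 200, and 4619 and 4801 with no filter. Centring on spike-ins moved the log2 ratio of all genes by 0.12, and the members' median to 0.13, against 0.016, so that Rfc4 was at 0.018, against -0.10. Pold3, -0.14 by TPM, was 0.072 by TMM, 0.072 by DESeq2 size factors and 0.075 by the most-read model, and Orc4, 0.12 by TPM, was -0.029, -0.029 and -0.027; both genes differ in assigned length between the libraries. The share on coding models, 93.5% of TPM, was 96.8% of counts, and members with over 20% on retained introns numbered 1 by counts, against 10 by TPM. The most-read model and retained introns by counts were chosen after seeing the data. No paired analysis was possible because the design has 1 group. Each pool is 1 library, so depth limits only the counting error.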
